A study of Mus musculus with 30 samples.

Results

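LL2, the Lewis lung carcinoma, was set against the B16 melanomas, a pair of sublines named B16F1 and B16F10, to ask how RNA from tumours of a carcinoma and of a pigmented melanoma differs between lines of the same C57BL/6 origin. The comparison used 9 of the 30 mouse RNA-seq libraries of the study, 3 from LL2, 3 from B16F1 and 3 from B16F10. The difference reported is LL2 minus the equal-weight mean of B16F1 and B16F10, in log2(TPM + 1), where TPM counts transcripts per 1000000, for genes at or above 1 TPM in at least 3 of the 9 libraries. Of the 55291 gene symbols with deposited TPM values, 14966 met that condition. TPM is a share of all transcripts in a library, corrected for transcript length, so it allows levels of different genes to be set side by side.

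The study profiled tumours of 10 lines and asks which of them OK-432 may suit. OK-432 is made from killed streptococci and is injected into tumours to activate innate immunity. The LL2, B16F1 and B16F10 tumours were each grown from a transplanted line with no allele, transgene or antigen named, and were taken at a length of 10 mm, and the labels call the RNA that of CD45+ tumour-infiltrating immune cells while describing its extraction from a suspension of the digested tumour. OK-432 for 24 hours, its absence, and hosts of the strains C57BL/6J and BALB/cJ are mentioned without being tied to any library, so treatment and host could not be used as groups and may be shared or mixed within LL2, B16F1 and B16F10. Nothing says that the 3 libraries of a line came from separate mice, and the p-values therefore measure the spread between these samples, which may be technical.

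Melanocytes arise from the neural crest and make pigment in melanosomes. The transcription factors MITF and SOX10 drive their enzymes tyrosinase, tyrosinase-related protein 1 and dopachrome tautomerase. B16 cells kept this pigment programme and are known for low surface MHC class I, while LL2 is a transplanted lung carcinoma known for tumours rich in myeloid cells. In a solid tumour, carcinoma or melanoma cells lie among macrophages, lymphocytes, vessels and fibroblasts, which lay down collagens and other matrix proteins and release chemokines that attract further leukocytes.

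Read depth cannot be recovered from TPM, so it is unknown here and counting error has no interval. The LL2 libraries held 13802 to 13978 genes at or above 1 TPM, against 13465 to 14122 in B16F1 and 12065 to 12434 in B16F10. Across tested genes, which are not independent replicates, libraries of a line correlated at r = 0.986 to 0.992 in LL2, 0.937 to 0.956 in B16F1 and 0.978 to 0.990 in B16F10. B16F1 replicate 2 stood apart from its line, with mitochondrial transcripts at 39.0% of TPM and with the lowest pigment and the highest leukocyte transcripts of B16F1. Haemoglobin transcripts took 0.0736% to 0.209% in LL2, against 0.0222% to 0.391% in B16F1 and 1.38% to 7.70% in B16F10, where replicate 2 was highest.

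The lines differed in about 1 gene of 3 tested. A gene was called when its Benjamini-Hochberg adjusted p in the limma fit was under 0.05 and its log2 fold change was at least 1 in either direction, and a gene given as not called missed at least 1 of these thresholds. In LL2, 3408 genes were higher (22.8% of those tested) and 1526 were lower (10.2%), which makes 4934 in all (33.0%), and the median log2 fold change over all tested genes was 0.27. Scaling the libraries by median ratios in place of the TPM total moved that median by -0.28 and gave 2490 higher and 2090 lower genes, so that the higher ones made up 54.4% of calls under that scaling and 69.1% under the TPM scale. No LL2 library overlapped any B16 library for 4014 genes above (26.8%) and 1543 below (10.3%). Set against B16F1 alone, LL2 had 3001 higher and 1956 lower genes (20.1% and 13.1%). Against B16F10 alone it had 4438 higher and 1406 lower (29.7% and 9.39%). These contrasts share the LL2 libraries, and 2389 genes were called higher and 836 lower in each of them.

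Pigment cell transcripts were abundant in every B16 library and close to absent in LL2, while transcripts that mark leukocytes of every kind were higher in LL2. Of 27 listed melanocyte genes, all of them tested, 20 were lower in LL2 and 2 were higher, with a median log2 fold change of -3.78. Of 10 pan-leukocyte genes 9 were higher, with a median of 2.68. Summed melanocyte-list TPM was 153 to 186 in LL2, against 2785 to 8936 in B16F1 and 11236 to 16237 in B16F10, so the B16 libraries go against the label of CD45+ cells. LL2 goes against the label as well, since its 19 listed collagen genes summed to 3216 to 4396 TPM, against 285 to 717 TPM in B16F1 and 36.2 to 75.6 TPM in B16F10. In such mixed RNA, fewer cells of a type and less RNA per cell cannot be told apart.

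Of the melanin enzymes, Dct and Tyrp1 were among the 10 largest falls. Dct, dopachrome tautomerase (chr14:118012790-118052244, minus strand, mm10), had 0, 0.0336 and 0.008802 TPM in LL2, against 4505, 967 and 3476 TPM in B16F1 and 4672, 2924 and 3228 TPM in B16F10. Dct was therefore next to nothing in LL2 and among the abundant transcripts of the melanomas, and the groups did not overlap. The difference was the largest fall of the comparison, log2 fold change -11.51 ± 0.39 SE, adjusted p = 2.7e-11. Tyrp1, which acts in the same pathway, had 0, 0 and 0.09997 TPM in LL2, against 243, 86.5 and 174 TPM in B16F1 and 3985, 3004 and 4260.5 TPM in B16F10. Tyr, tyrosinase, the rate-limiting enzyme of melanin synthesis, was listed at 0 in each LL2 library, against 30.4, 3.83 and 7.99 TPM in B16F1 and 242, 176 and 194 TPM in B16F10. B16F10 had far more of both enzymes than B16F1, and no LL2 library reached any B16 library (log2 fold change -9.52 ± 0.29 SE, adjusted p = 1.7e-11 for Tyrp1 and log2 fold change -5.57 ± 0.42 SE, adjusted p = 3.7e-08 for Tyr).

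Promoters of these 3 enzymes hold the hexamer that MITF binds in pigment cells, CATGTG, known as the core of the M-box. They are shown because they are the enzymes of melanin synthesis described above, in windows from RefSeq (GRCm38.p6) of 250 bases before to 50 after the gene start, printed along the gene with CATGTG or its reverse complement in capitals. The Tyr window is chr7:87493463-87493762 on the minus strand, the Tyrp1 window chr4:80833963-80834262 on the plus strand and the Dct window chr14:118052197-118052496 on the minus strand.
Tyr promoter: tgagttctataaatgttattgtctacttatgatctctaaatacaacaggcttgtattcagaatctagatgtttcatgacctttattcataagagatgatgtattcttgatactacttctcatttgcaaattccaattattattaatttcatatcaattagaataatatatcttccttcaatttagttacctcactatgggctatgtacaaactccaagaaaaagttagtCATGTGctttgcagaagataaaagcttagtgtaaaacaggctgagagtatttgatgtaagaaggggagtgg
Tyrp1 promoter: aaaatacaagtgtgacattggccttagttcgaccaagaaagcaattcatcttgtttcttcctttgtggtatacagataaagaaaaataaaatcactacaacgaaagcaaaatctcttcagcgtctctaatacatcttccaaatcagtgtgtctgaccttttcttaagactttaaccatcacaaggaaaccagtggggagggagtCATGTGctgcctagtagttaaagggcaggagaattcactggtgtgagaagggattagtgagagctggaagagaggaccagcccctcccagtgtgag
Dct promoter: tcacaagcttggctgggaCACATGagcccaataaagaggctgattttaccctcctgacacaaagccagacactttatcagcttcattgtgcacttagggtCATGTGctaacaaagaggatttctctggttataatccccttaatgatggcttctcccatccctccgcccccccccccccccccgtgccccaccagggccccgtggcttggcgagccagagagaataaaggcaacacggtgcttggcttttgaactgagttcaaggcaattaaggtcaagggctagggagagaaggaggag
The match began at position -21 in Tyr and at position -46 in Tyrp1, counted from the gene start, and at -232 and -150 in Dct, where the distal match is on the opposite strand. Searched on both strands, CATGTG was in 14.2% of the 32851 windows of that length and in at least 1 window of 15.9% of the 27025 genes with a window. Among the 27 melanocyte genes 20 had a window, and 8 of those (40.0%) held it. Pmel, Mlana, Sox10 and Slc45a2 were not among the 20. CACGTG, the related E-box, was in 8.09% of all genes with a window and in 6 of the 20. A match is a description of letters and not a measured site.

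The genes of melanosome structure and transport moved the same way, 9 of 11 being lower in LL2 and none higher. Pmel, which forms the fibrils on which melanin is laid, had 0.508, 0.437 and 0.313 TPM in LL2, against 1244, 228 and 622 TPM in B16F1 and 2994, 2101 and 3406 TPM in B16F10. Mlana, melan-A, a melanosome protein and T cell antigen of melanomas, had 0, 0 and 0.0581 TPM in LL2, against 443, 90.5 and 447 TPM in B16F1 and 811, 594 and 766 TPM in B16F10. For both genes the LL2 libraries were under 1 TPM and the lowest B16 library was B16F1 replicate 2 (log2 fold change -9.78 ± 0.39 SE, adjusted p = 7.5e-11 for Pmel and log2 fold change -8.74 ± 0.40 SE, adjusted p = 2.6e-10 for Mlana). Slc45a2, a melanosome transporter, and Gpr143, a melanosome receptor, were listed at 0 in every LL2 library, against 45.9 to 470.0 TPM and 11.2 to 47.5 TPM over the B16 libraries. Oca2 and Slc24a5, also pigment transporters, were high in B16F10 alone. Oca2 was listed at 0 in LL2, against at most 0.513 TPM in B16F1 and 29.8 to 43.8 TPM in B16F10. Slc24a5 had 0.796 to 1.07 TPM in LL2, against at most 1.83 TPM in B16F1, which overlapped LL2, and 249 to 352 TPM in B16F10. Myo5a, the motor that carries melanosomes and is used by many other cells, had a log2 fold change of -0.34 and was not called.

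Among regulators of the lineage, 4 of 7 were lower in LL2 and 1 was higher. Sox10 (chr15:79154908-79165240) had 0.0234, 0 and 0 TPM in LL2, against 391, 272 and 227 TPM in B16F1 and 242, 161 and 186 TPM in B16F10, with no overlap (log2 fold change -7.88 ± 0.24 SE, adjusted p = 1.7e-11). Mitf, which macrophages and mast cells also express, had 14.2, 10.95 and 10.8 TPM in LL2, against 275, 53.7 and 73.1 TPM in B16F1 and 231, 151 and 177 TPM in B16F10. LL2 thus kept a level of Mitf that was low but not near 0, and its log2 fold change was -3.42. Pax3 and Mc1r, the receptor for melanocyte-stimulating hormone, were lower as well (-3.77 and -5.37). Ednrb, an endothelin receptor of melanocyte precursors that endothelium also uses, went the other way with 5.02, 7.61 and 2.51 TPM in LL2, against 1.701, 1.27 and 0.832 TPM in B16F1 and 0.368, 0.201 and 0.709 TPM in B16F10. Bcl2a1d, a survival gene of the BCL2 family that leukocytes also express, was the other member higher in LL2 (1.48), and Kit was not called (0.46). Lef1 and Slc24a4 passed the p threshold (adjusted p = 0.0069 and 0.0016) but not the fold threshold (-0.67 and -0.69), and were not called.

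Genes of the neural crest and its glia were lower too, 7 of 9 tested, with 1 higher, beside 10.2% and 22.8% of all genes. S100b, a calcium-binding protein of glia and melanoma, had 0.341, 0.267 and 0.1403 TPM in LL2, against 153, 152 and 131 TPM in B16F1 and 98.1, 70.3 and 71.9 TPM in B16F10. Cdh19 and Erbb3 fell with it (-4.69 and -4.01), Cdh19 being listed at 0 in LL2. Against B16F10 alone 4 members of the list were called lower in place of 7, beside 9.39% of all genes.

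Of the 10 largest falls 7 are on the melanocyte list, and Ptgds, Car6 and Car14 were on no list. Ptgds makes prostaglandin D2. It was 0, 0.189 and 0 TPM in LL2, against 3615, 767 and 3358 TPM in B16F1 and 1189, 864 and 1355 TPM in B16F10 (log2 fold change -10.50 ± 0.40 SE, adjusted p = 6.4e-11). Trpm1, a channel whose gene houses a melanocyte microRNA, reached at most 0.132 TPM in LL2, against 51.0 to 504 TPM over the B16 libraries. Car6 and Car14, carbonic anhydrases that are secreted and membrane-bound in that order, reached at most 1.24 and 0.0724 TPM in LL2, while the lowest B16 values were 164 and 68.3 TPM.

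Ptprc, which encodes CD45 itself (chr1:138062861-138175708), had 63.7, 95.5 and 66.1 TPM in LL2, against 6.06, 17.3 and 6.92 TPM in B16F1 and 2.7005, 5.11 and 8.35 TPM in B16F10. Every LL2 library was above every B16 library, and the difference was log2 fold change 3.27 ± 0.34 SE, adjusted p = 1.3e-06. Coro1a, an actin regulator of leukocytes, had 271, 264 and 201 TPM in LL2, against 25.3, 71.4 and 44.4 TPM in B16F1 and 10.7, 25.3 and 43.03 TPM in B16F10 (log2 fold change 2.91 ± 0.38 SE, adjusted p = 1.2e-05). The other genes called were Lcp1, Cd53, Laptm5, Fermt3, Ikzf1, Was and Cd52, between 2.32 and 2.84 on the log2 scale. Arhgdib, taken as pan-leukocyte, had 192, 188 and 180.3 TPM in LL2, against 22.6, 63.7 and 61.3 TPM in B16F1 and 420.3, 341 and 426 TPM in B16F10, so it was higher in B16F10 than in LL2 and was not called (0.48).

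**Figure D1:**
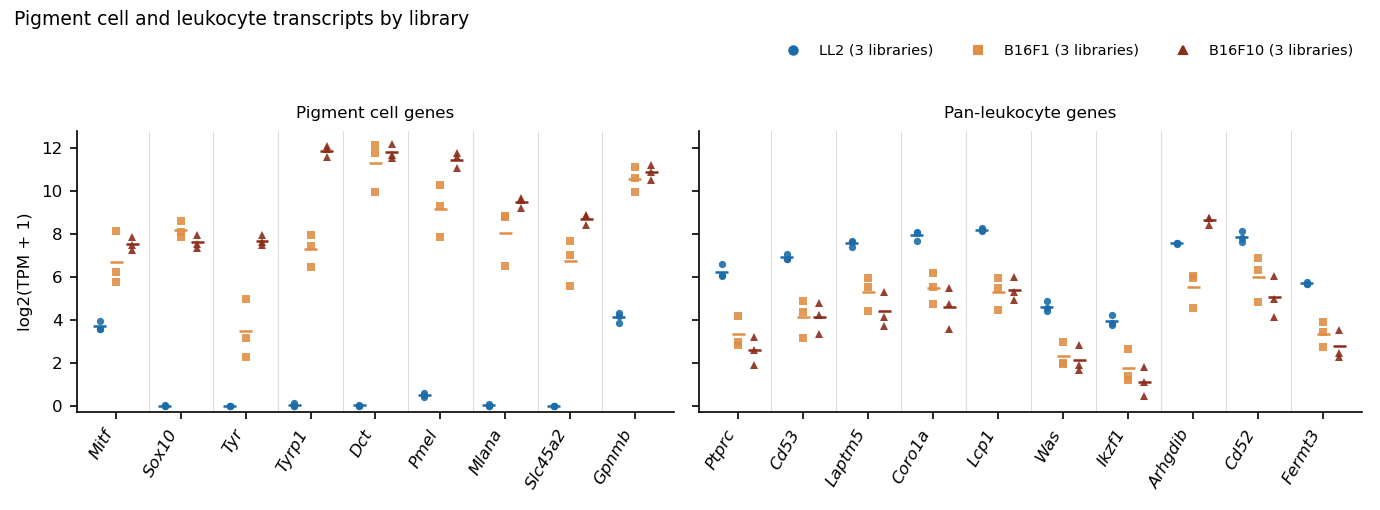
Levels of 9 pigment cell genes and the 10 pan-leukocyte genes as log2(TPM + 1), with a point for each library and a bar for the mean of a line (3 libraries each of LL2, B16F1 and B16F10). The pigment genes other than Mitf and Gpnmb lie at or near 0 in LL2, and every pan-leukocyte gene except Arhgdib lies higher in LL2 than in any B16 library.

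The mean log2(TPM + 1) of the 10 pan-leukocyte genes, used as a leukocyte score, was 6.51 to 6.82 in LL2, against 3.51 to 4.90 in B16F1 and 3.47 to 4.77 in B16F10. The line means differed by 2.49. With this score subtracted in each library, a second set of fold changes compares transcripts with the leukocyte level, and 213 genes were then higher in LL2 (1.42%) and 12604 lower (84.2%), together 85.6% of those tested. The subtraction lowers every fold change by the same amount, and it is given below for most of the immune lists.

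LL2 libraries were rich in collagens, proteoglycans, matrix proteases and regulators of mesenchymal cells. Of 19 collagen genes 15 were higher and 1 was lower, with a median log2 fold change of 2.46. Matrix glycoproteins and proteoglycans had 13 higher and 4 lower of 22 (median 3.07), matrix enzymes and inhibitors 16 higher and 1 lower of 26 (1.48), and genes of fibroblast and mesenchymal identity 15 higher and none lower of 20 (2.35), beside a median of 0.27 over all genes tested. Over all genes tested 22.8% were higher and 10.2% lower. Of the 10 largest rises 8 encode secreted or matrix proteins, and the others are keratins.

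Col3a1, the main chain of type III collagen (chr1:45311538-45349706), had 2667, 2316 and 1968 TPM in LL2, against 25.4, 104 and 24.5 TPM in B16F1 and 3.83, 0.983 and 4.4999 TPM in B16F10. It was above any B16 library by more than an order of magnitude in each LL2 library, log2 fold change 7.53 ± 0.42 SE, adjusted p = 1.7e-09. The 3 chains of type VI collagen rose together, Col6a3 by 5.91, Col6a2 by 5.38 and Col6a1 by 5.17, and Col18a1, a basement membrane collagen, by 5.94. Type I collagen, which fibroblasts make in bulk, did not separate LL2 from B16F1. Col1a1 had 39.8, 97.5 and 35.8 TPM in LL2, against 23.9, 39.8 and 15.03 TPM in B16F1 and 3.21, 1.01 and 2.37 TPM in B16F10, so LL2 and B16F1 overlapped and the call (2.59) rests mostly on B16F10. In LL2 the level of Col3a1 was thus far above that of Col1a1 per transcript length. Col11a1 had 0.0277, 0 and 0.0144 TPM in LL2, against 21.5, 148 and 23.9 TPM in B16F1 and 0.1804, 0.0706 and 0.0533 TPM in B16F10, a fall (-2.77) that lies with B16F1 and is not called against B16F10 alone, where no collagen was lower.

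Among proteoglycans, Lum and Dcn, small leucine-rich proteins that bind collagen fibrils, stood out. Lum (chr10:97565128-97572703) had 582, 420.0 and 485 TPM in LL2, against 0.782, 6.51 and 1.77 TPM in B16F1 and 0.475, 0.102 and 0.352 TPM in B16F10, and Dcn had 879.7, 778 and 722 TPM in LL2, against 6.49, 28.1 and 5.42 TPM in B16F1 and 1.17, 0.769 and 2.45 TPM in B16F10. Both were at 420.0 TPM or more in LL2 and under 30 in the B16 libraries, B16F1 replicate 2 being the highest of these (log2 fold change 7.89 ± 0.36 SE, adjusted p = 2.1e-10 for Lum and log2 fold change 7.27 ± 0.39 SE, adjusted p = 1.2e-09 for Dcn). Vcan, the large proteoglycan versican, was at least 155 TPM in each LL2 library and at most 0.829 TPM in any B16 library (6.83). Thbs2, Fbn1 and Efemp1 rose by 6.38, 5.85 and 5.44. Fmod and Prelp, of the same small leucine-rich family as Lum, moved the other way (-3.19 and -2.31). Fmod had 0, 0.0424 and 0.0677 TPM in LL2, against 26.7, 306 and 82.5 TPM in B16F1 and 0 TPM in all 3 libraries of B16F10, and so its fall rests on B16F1. Sparc and Postn were not called (0.27 and 1.07).

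**Figure D2:**
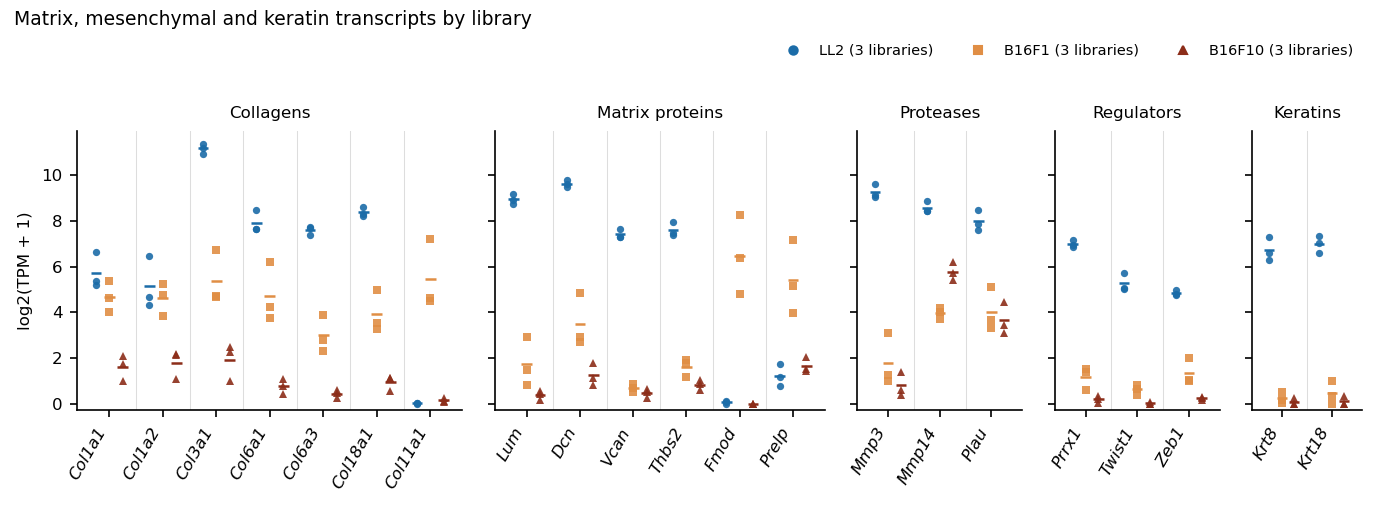
Levels of matrix, protease, mesenchymal regulator and keratin genes as log2(TPM + 1), with a point for each library and a bar for the mean of a line (3 libraries each of LL2, B16F1 and B16F10). Most genes are highest in LL2, Col1a1 and Col1a2 overlap between LL2 and B16F1, and Col11a1, Fmod and Prelp are highest in B16F1.

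Of the proteases 10 of 13 tested were higher in LL2 and none lower. Mmp3, stromelysin 1, which cleaves proteoglycans and activates other metalloproteinases (chr9:7445822-7455975), had 786, 530.3 and 557 TPM in LL2, against 1.38, 7.43 and 0.979 TPM in B16F1 and 0.31002, 1.596 and 0.533 TPM in B16F10. Its lowest LL2 library was far above its highest B16 library, log2 fold change 7.98 ± 0.39 SE, adjusted p = 4.8e-10. Plau, the urokinase that activates plasmin, had 357, 190.1 and 235 TPM in LL2, against 8.83, 11.5 and 33.8 TPM in B16F1 and 9.94, 7.401 and 21.1 TPM in B16F10. Mmp14, the membrane-bound activator of gelatinase A, had 467, 342 and 347 TPM in LL2, against 12.1, 17.2 and 15.1 TPM in B16F1 and 72.2, 41.1 and 50.9 TPM in B16F10, with B16F10 above B16F1 and LL2 above both (log2 fold change 3.71 ± 0.25 SE, adjusted p = 9.3e-09). Mmp12 and Mmp10 rose by 3.46 and 3.62, and Mmp2 and Mmp13 were not called (0.39 and 0.69, the second with adjusted p = 0.0499). Of the inhibitors 3 of 6 were higher, and Timp1 and Timp3 were not called (0.55 and -0.40).

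The Mmp3 window, chr9:7445572-7445871 on the plus strand (GRCm38.p6), is shown because Mmp3 led the protease rises and TGACTCA, the AP-1 element known from stromelysin promoters, is in it, on the opposite strand at position -46, with the match in capitals.
Mmp3 promoter: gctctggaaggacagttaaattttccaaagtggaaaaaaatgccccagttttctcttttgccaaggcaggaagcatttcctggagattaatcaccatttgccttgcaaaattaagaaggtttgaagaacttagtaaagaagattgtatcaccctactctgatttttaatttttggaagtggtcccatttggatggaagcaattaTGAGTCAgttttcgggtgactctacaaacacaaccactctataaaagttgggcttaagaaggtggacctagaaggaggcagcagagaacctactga
TGACTCA, searched on both strands, was in 5.95% of the 27025 genes with a window. Of the tested matrix enzymes and inhibitors 15 had a window and 4 held it, those of Mmp3, Mmp10, Mmp12 and Mmp13. Jun, a subunit of AP-1, had 176, 128 and 126 TPM in LL2, against 35.1, 15.2 and 23.004 TPM in B16F1 and 20.8, 14.7 and 23.6 TPM in B16F10 (log2 fold change 2.69 ± 0.27 SE, adjusted p = 9.8e-07). Whether AP-1 binds there was not measured.

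Regulators that specify mesenchymal cells rose in 7 of 8 tested. Prrx1, a homeobox factor of limb and connective tissue, had 144, 120.1 and 115 TPM in LL2, against 1.86, 1.58 and 0.529 TPM in B16F1 and 0.155, 0.0178 and 0.245 TPM in B16F10. Twist1, a driver of epithelial to mesenchymal transition, had 51.9, 31.8 and 32.3 TPM in LL2, against 0.566, 0.761 and 0.312 TPM in B16F1 and 0, 0 and 0.0529 TPM in B16F10. Both were under 2 TPM in every B16 library (log2 fold change 6.31 ± 0.25 SE, adjusted p = 7.1e-11 for Prrx1 and log2 fold change 4.95 ± 0.22 SE, adjusted p = 1.8e-10 for Twist1). Snai1 rose by 4.08, while Snai2, which neural crest cells use, had 7.29, 6.94 and 4.604 TPM in LL2, against 6.29, 8.54 and 5.94 TPM in B16F1 and 1.66, 0.678 and 1.05 TPM in B16F10 and was not called (0.82, adjusted p = 0.0092). Pdgfra, the platelet-derived growth factor receptor of fibroblasts, was 60.9 to 72.8 TPM in LL2 and at most 1.08 TPM in B16 (5.65), but Pdgfrb, a receptor of pericytes and activated fibroblasts, was not called (0.61). The contractile gene Tagln was not called (-0.47), nor was Vim (0.70), the filament of mesenchymal cells and of B16 cells alike. S100a4, which fibroblasts, macrophages and invasive tumour cells express, had 2186, 1562 and 1925 TPM in LL2, against 138, 478 and 473 TPM in B16F1 and 15.98, 39.3 and 40.8 TPM in B16F10 (4.25).

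Dkk2, a secreted modulator of Wnt signalling (chr3:132085292-132180304), was the largest rise of all at log2 fold change 8.21 ± 0.22 SE, adjusted p = 5.3e-12. It had 359.8, 302 and 268 TPM in LL2, against 0.166, 0.102 and 0 TPM in B16F1 and 0 TPM in all 3 libraries of B16F10, and so it was listed at 0 throughout B16F10. Ntn1, netrin 1, a secreted guidance cue, and Pxdn, peroxidasin, which crosslinks collagen IV, were likewise high in LL2 alone among these lines. Ntn1 was 85.8 to 138 TPM in LL2 and at most 0.216 TPM in B16, and Pxdn was 135 to 196 TPM in LL2 and at most 1.71 TPM in B16.

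Epithelial and lung genes were mostly below the expression filter, and the defining markers of lung epithelium go against the label of a lung carcinoma, although a keratin pair was high in LL2. Of 20 listed genes 6 were tested, and 5 of them were higher in LL2, beside 22.8% of all genes. Krt8 and Krt18, the keratin pair of simple epithelia, were 76.9 to 154 and 96.4 to 159.8 TPM in LL2, while no B16 library reached 1 TPM of either (log2 fold change 6.56 ± 0.25 SE, adjusted p = 6.4e-11 for Krt8 and log2 fold change 6.71 ± 0.26 SE, adjusted p = 6.8e-11 for Krt18). Cdh1, E-cadherin, had 5.46, 3.02 and 3.799 TPM in LL2, against 1.88, 2.26 and 1.22 TPM in B16F1 and 0.989, 0.266 and 0.689 TPM in B16F10 (1.24). Napsa, an aspartic protease of alveolar cells that macrophages also express, and Foxa2, an endoderm factor, were called at 1.59 and 1.28. Nkx2-1, Sftpb, Sftpc, Sftpa1 and Scgb1a1, the defining genes of alveolar and airway epithelium, and Epcam, Krt7 and Krt19 were among the 14 below the filter, with at most 0, 0.0757, 0.0619, 0 and 0.08402 TPM in any LL2 library for the lung genes in that order, and Esrp1 was not called (-0.99, adjusted p = 0.0036).

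Endothelial genes were higher in 10 of 12 tested, at lower levels, beside 22.8% of all genes. Cdh5, VE-cadherin, had 10.7, 12.7 and 7.93 TPM in LL2, against 2.55, 2.07 and 1.62 TPM in B16F1 and 0.142, 0.326 and 0.211 TPM in B16F10 (log2 fold change 2.54 ± 0.21 SE, adjusted p = 9.4e-08), and Pecam1 rose by 2.27. B16F10 had the lowest mean of the 3 lines for each of the 10. Against B16F1 alone 3 of the 12 were called higher in place of 10, beside 20.1% of all genes. Vwf was not called (-0.96). Muscle genes were not higher in LL2 as a list, and Acta1, Ckm and Tnnt3 were high in B16F1 replicate 1 alone (130, 36.9 and 103 TPM).

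Genes of myeloid and NK cells were higher in LL2 in most members of each list, while few T cell genes were called. Of 24 macrophage genes 18 were higher in LL2 and 2 lower (median 2.18), all 8 tested monocyte genes were higher (3.21), 10 of 11 neutrophil genes (1.94), 16 of 19 dendritic cell genes (1.51) and 9 of 10 NK cell genes (1.60). Of 20 T cell genes 1 was higher (median 0.54), and of 4 tested B and plasma cell genes none was called. Over all genes tested, 22.8% were higher and 10.2% lower, and the list medians stood beside a leukocyte score difference of 2.49. With that score subtracted, no NK cell, dendritic cell, interferon, checkpoint, cytotoxic effector or MHC gene was higher in LL2. Lower were 4 of 10 NK cell, 9 of 19 dendritic cell, 11 of 32 interferon and 9 of 12 checkpoint genes. So were 6 of 10 cytotoxic effector, 12 of 20 MHC class I and 11 of 12 class II genes, beside 84.2% of all genes. Neutrophil genes had 1 higher and 3 lower, chemokines 3 and 7, listed suppressive mediators 4 and 5 and complement genes 1 and 4.

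**Figure D3:**
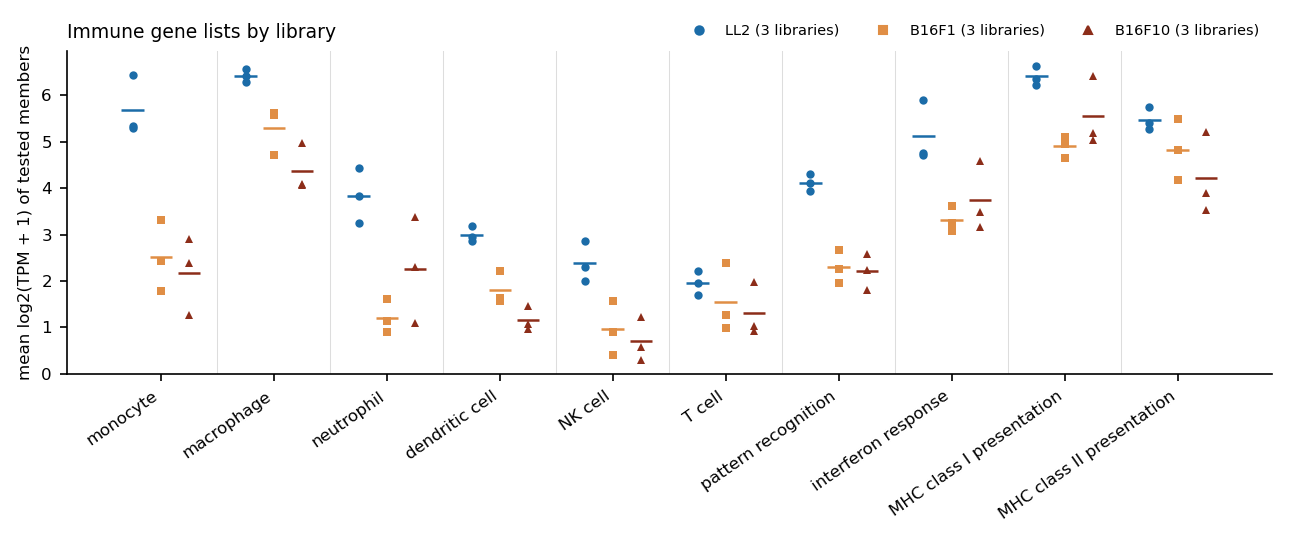
Mean log2(TPM + 1) of the tested members of 10 immune gene lists, with a point for each library and a bar for the mean of a line (3 libraries each of LL2, B16F1 and B16F10). LL2 lies above every B16 library for monocyte, macrophage, dendritic cell, NK cell, pattern recognition and interferon genes, and overlaps with B16 for neutrophil, T cell and both MHC lists.

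Each of the 12 tested macrophage receptors was higher in LL2. Csf1r, the receptor for the growth factor that macrophages need, had 159, 169 and 134 TPM in LL2, against 15.5, 51.01 and 31.4 TPM in B16F1 and 4.64, 9.02 and 15.7 TPM in B16F10 (log2 fold change 3.16 ± 0.36 SE, adjusted p = 3.2e-06). Msr1, a scavenger receptor, had 141, 117 and 130.3 TPM in LL2, against 4.59, 13.4 and 13.1 TPM in B16F1 and 3.94, 6.45 and 9.43 TPM in B16F10 (log2 fold change 3.90 ± 0.32 SE, adjusted p = 1e-07). Siglec1 and Mrc1, a sialic acid and a mannose receptor, rose by 3.69 and 3.26. With the leukocyte score subtracted, 2 of the 12 receptors were higher and none was lower, beside 1.42% and 84.2% of all genes. The secreted and lipid-handling members split. Spp1, osteopontin, had 2421, 1079 and 1587 TPM in LL2, against 215, 1503 and 778 TPM in B16F1 and 45.3, 97.95 and 76.99 TPM in B16F10 (2.92), and Apoe was not called (-0.39). Gpnmb, which macrophages use and which is also a melanosome protein, had 19.2, 13.2 and 17.2 TPM in LL2, against 2177, 979 and 1558 TPM in B16F1 and 1866, 1444 and 2348 TPM in B16F10, a fall of -6.58 together with the pigment genes. Fabp5, a fatty acid binding protein, was the other member lower in LL2 (-2.90).

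Monocyte genes had the highest median of the 33 lists. Ccr2, the receptor that brings inflammatory monocytes from marrow into tissue (chr9:124101950-124113557), had 94.9, 148 and 107 TPM in LL2, against 2.47, 13.8 and 3.82 TPM in B16F1 and 1.25, 3.41 and 4.55 TPM in B16F10. The lowest LL2 library was well above the highest B16 library, B16F1 replicate 2, and the difference was log2 fold change 4.57 ± 0.40 SE, adjusted p = 2.1e-07. Ly6c2, the surface mark of these monocytes, had 45.4, 203 and 47.9 TPM in LL2, against 1.26, 7.33 and 4.54 TPM in B16F1 and 1.64, 4.22 and 10.7 TPM in B16F10 (log2 fold change 3.93 ± 0.53 SE, adjusted p = 1.8e-05). LL2 replicate 2 was the highest library for Ly6c2, as it was for Ms4a4c at 92.1 TPM, against 22.5 and 31.1 TPM in the other LL2 libraries. Relative to the leukocyte score these 2 genes, Ccr2 and Ly6c2, were still higher in LL2 (2.08 and 1.44, adjusted p = 0.00086 and 0.019), and none of the 8 was lower. Of all genes, 1.42% were higher and 84.2% lower in that fit.

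Neutrophil genes were uneven within the lines. S100a9, a subunit of calprotectin, had 261, 113 and 62.1 TPM in LL2, against 1.099, 6.0004 and 0.774 TPM in B16F1 and 3.05, 132 and 28.3 TPM in B16F10, and S100a8 had 99.9, 41.9 and 35.6 TPM in LL2, against 1.23, 2.94 and 0.904 TPM in B16F1 and 3.03, 73.6 and 12.5 TPM in B16F10. LL2 replicate 1 was highest, and B16F10 replicate 2, the library with the most haemoglobin, overlapped LL2 for both (log2 fold change 3.84 ± 0.79 SE, adjusted p = 0.00082 for S100a9). Csf3r, the receptor of granulocyte colony-stimulating factor, did not overlap, with 10.3 to 22.7 TPM in LL2 and at most 3.43 TPM in B16 (2.69). Ly6g, Camp and Ngp were below the filter. Without B16F10 replicate 2, 10 neutrophil genes were called higher.

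Among dendritic cell genes all 9 of the mature state were higher. Fscn1, an actin bundler of mature dendritic cells that invasive tumour cells also use, had 151, 123 and 122 TPM in LL2, against 11.4, 8.98 and 4.58 TPM in B16F1 and 22.6, 13.1 and 13.998 TPM in B16F10 (log2 fold change 3.43 ± 0.28 SE, adjusted p = 8.7e-08). Clec9a, a receptor of conventional type 1 dendritic cells, was 7.03 to 8.78 TPM in LL2 and at most 0.282 TPM in B16 (log2 fold change 2.98 ± 0.17 SE, adjusted p = 1.8e-09), but Batf3 and Zbtb46, factors of conventional dendritic cells, were not called (-0.10 and -0.54). Xcr1 was below the filter. Mast cell genes were higher at low levels, with Cpa3, a carboxypeptidase of mast cell granules, at 1.41, 4.46 and 1.73 TPM in LL2, against 0, 0.0425 and 0.07496 TPM in B16F1 and 0, 0.227 and 0 TPM in B16F10 (1.65), and LL2 replicate 2 the highest.

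None of the 7 genes of the T cell receptor complex was called. Cd3e had 2.06, 3.402 and 3.89 TPM in LL2, against 0.5205, 4.04 and 0.5096 TPM in B16F1 and 0.428, 0.887 and 2.88 TPM in B16F10, and Trac, the constant region of the alpha chain, had 4.07, 8.81 and 5.04 TPM in LL2, against 2.03, 13.3 and 3.11 TPM in B16F1 and 1.35, 0.915 and 4.896 TPM in B16F10. LL2 lay within the range of the B16 libraries for both, B16F1 replicate 2 being the highest of all 9 (log2 fold change 0.86 ± 0.38 SE, adjusted p = 0.068 for Cd3e). Cd8a and Cd4 had log2 fold changes of 0.52 and 0.38 and were not called, and Foxp3, Il2ra and Icos were below the filter. Ikzf2, a factor of regulatory T cells that other cells also express, was the 1 member higher (1.08), and its log2 fold change was under 1 without LL2 replicate 1 (0.96) or B16F1 replicate 3 (0.99). Without B16F1 replicate 2 the count of T cell genes higher was 6, and without B16F10 replicate 3 it was 5. Relative to the leukocyte score, all 20 T cell genes were lower in LL2 (median -1.94), beside 84.2% of all genes. Cytotoxic effectors were higher in 6 of 10, beside 22.8% of all genes. Under median-ratio scaling 2 of the 10 were higher, beside 2490 of all 14966 genes tested. Gzmb had 8.38, 17.03 and 9.24 TPM in LL2, against 0.355, 2.01 and 0.676 TPM in B16F1 and 1.08, 2.03 and 17.3 TPM in B16F10 (log2 fold change 1.98 ± 0.52 SE, adjusted p = 0.0049), B16F10 replicate 3 being as high as any LL2 library. NK receptors rose by up to 2.23 (Cd244a), and Klrk1, the activating receptor NKG2D, had 3.93, 11.1 and 5.07 TPM in LL2, against 0.636, 2.73 and 1.17 TPM in B16F1 and 0.338, 0.672 and 1.58 TPM in B16F10 (log2 fold change 1.79 ± 0.32 SE, adjusted p = 0.00024).

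Among checkpoint genes 6 of 12 were higher and none lower, beside 22.8% and 10.2% of all genes. Under median-ratio scaling 3 of the 12 were higher, beside 2490 of all 14966 genes tested. Vsir, which encodes VISTA, an inhibitory ligand of myeloid cells, had 65.02, 51.7 and 48.04 TPM in LL2, against 3.56, 14.1 and 5.57 TPM in B16F1 and 1.67, 2.93 and 6.11 TPM in B16F10 (log2 fold change 3.29 ± 0.37 SE, adjusted p = 2.5e-06). Havcr2, TIM-3, which macrophages also carry, and Cd47, the signal that blocks engulfment, rose by 2.60 and 2.44. Of 4 tested checkpoint receptors 2 were higher, while Pdcd1 and Lag3, inhibitory receptors of T cells, were not called (0.06 and -0.21). Cd274, PD-L1, had 19.8, 24.2 and 13.4 TPM in LL2, against 10.2, 4.67 and 7.21 TPM in B16F1 and 5.69, 7.51 and 18.6 TPM in B16F10 (1.10), and B16F10 replicate 3 lay within LL2. The call of Cd274 was lost without LL2 replicate 1 (1.06), LL2 replicate 2 (0.92), B16F1 replicate 2 (0.98) or B16F10 replicate 1 (0.94).

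MHC class I chains were higher in LL2 while most of the peptide supply machinery was not called. Of 20 genes 10 were higher and none lower (median 1.06), 6 of 7 chains and 3 of 11 genes of peptide supply and loading, beside 22.8% of all genes. With the leukocyte score subtracted, none of the 7 chains was higher and 2 were lower (median -0.62). Of all genes, 1.42% were higher and 84.2% lower in that fit. Under median-ratio scaling 7 of the 20 were higher, beside 2490 of all 14966 genes tested. H2-K1, H2-Q4 and Erap1 were not called under that scaling (1.13, 0.85 and 0.89). H2-D1, a classical class I heavy chain (chr17:35262730-35267499), had 1122, 985 and 852 TPM in LL2, against 50.6, 136 and 108 TPM in B16F1 and 294, 360.1 and 818 TPM in B16F10. B16F1 was lowest, B16F10 intermediate with replicate 3 close to LL2, and the difference was log2 fold change 2.28 ± 0.37 SE, adjusted p = 9.1e-05. H2-K1, the other classical chain, had 541, 598 and 462 TPM in LL2, against 48.5, 149.6 and 128 TPM in B16F1 and 258, 302 and 667 TPM in B16F10, so B16F10 replicate 3 was the highest library of all, and it was called at 1.47. Reads may be shared between these heavy chain genes, which makes single levels uncertain. B2m, the light chain, was not called (0.81). Tap2, a subunit of the peptide transporter, had 49.997, 45.6 and 43.8 TPM in LL2, against 2.801, 5.97 and 3.56 TPM in B16F1 and 9.37, 8.69 and 24.5 TPM in B16F10 (log2 fold change 2.53 ± 0.31 SE, adjusted p = 7.4e-06), and Tapbp, tapasin, rose by 2.21. Tap1, Psmb8, Psmb9 and Nlrc5 were not called (0.88, 0.73, -0.40 and 0.93, the last with adjusted p = 0.017). Psmb9, a subunit of the immunoproteasome, had 15.3, 23.6 and 14.6 TPM in LL2, against 13.5, 14.4 and 14.6 TPM in B16F1 and 17.3, 32.4 and 97.6 TPM in B16F10, B16F10 replicate 3 being far above all others. The median of the list was 1.49 against B16F1 alone and 0.69 against B16F10 alone. H2-Q7, H2-T23, H2-Q4, H2-M3, Erap1 and Irf1 were the remaining genes called, at 1.18 to 2.34, with H2-Q4 at 0.97 and not called without LL2 replicate 2.

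For MHC class II the 4 chains were not called, among them H2-Ab1 (1.11) and Cd74 (0.80), and 3 of 12 genes were higher, beside 22.8% of all genes. Ctss, cathepsin S, which trims the invariant chain in antigen-presenting cells, had 794, 791 and 766 TPM in LL2, against 70.9, 270.0 and 205 TPM in B16F1 and 46.6, 58.97 and 158 TPM in B16F10 (log2 fold change 2.83 ± 0.42 SE, adjusted p = 4.2e-05). Ciita, the class II master regulator, rose by 1.29 at 3.79 to 6.91 TPM in LL2 and was not called under median-ratio scaling (1.03). B16F1 replicate 2 and B16F10 replicate 3 were the B16 libraries with the highest class II levels, and without B16F10 replicate 3 the count was 8, without B16F1 replicate 2 it was 5.

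Interferon-response genes were higher in 24 of 32 tested and lower in none (median 1.56), beside 22.8% and 10.2% of all genes. Antiviral effectors made up 13 of the 24. Irf7, the factor that amplifies type I interferon, had 57.8, 168 and 58.4 TPM in LL2, against 11.5, 6.23 and 9.34 TPM in B16F1 and 4.37, 11.9 and 28.2 TPM in B16F10. LL2 replicate 2 was the highest library, and the LL2 libraries did not overlap with B16 (log2 fold change 2.92 ± 0.45 SE, adjusted p = 6.7e-05). Oas3, an activator of antiviral RNase L, had 12.4, 36.4 and 11.9 TPM in LL2, against 1.28, 0.883 and 0.868 TPM in B16F1 and 0.521, 1.31 and 2.87 TPM in B16F10 (log2 fold change 3.09 ± 0.35 SE, adjusted p = 2.7e-06), and Ifitm3, which blocks virus entry, had 1185, 997 and 878 TPM in LL2, against 90.4, 53.4 and 109 TPM in B16F1 and 164, 211 and 439.7 TPM in B16F10 (log2 fold change 2.83 ± 0.33 SE, adjusted p = 4e-06). Of 7 tested GTPases on the list 4 were higher and none lower. Irgm1, Igtp and Iigp1, GTPases of cell-autonomous defence that interferon gamma induces, were not called (-0.38, 0.45 and 0.93). B16F10 replicate 3 was the highest library for these genes. Without LL2 replicate 2 the count of interferon-response genes higher was 18, and without B16F10 replicate 3 it was 26. A pair of GAAA tetramers with any 2 bases between them, the core of interferon-stimulated response elements, was in at least 1 promoter window of 17 of the 24 members with a window (70.8%), searched on both strands, and in 3.99% of all genes with a window.

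Chemokines were higher in LL2 in 16 of 22 tested (median 2.25), beside 22.8% of all genes. All 5 neutrophil attractants, 6 of 9 monocyte attractants and 2 of 5 T cell attractants were higher, and none was lower. Ccl2, the ligand of CCR2, had 464, 376 and 355 TPM in LL2, against 14.6, 17.1 and 59.7 TPM in B16F1 and 14.2, 17.7 and 33.3 TPM in B16F10, every LL2 library being above every B16 library (log2 fold change 4.08 ± 0.38 SE, adjusted p = 4.1e-07). Ccl6, a chemokine of myeloid cells, had 375, 339 and 356 TPM in LL2, against 15.3, 26.7 and 10.5 TPM in B16F1 and 30.6, 43.9 and 112 TPM in B16F10 (log2 fold change 3.54 ± 0.36 SE, adjusted p = 9.5e-07). Cxcl1, which acts on CXCR2 of neutrophils, was 17.0 to 34.6 TPM in LL2 and at most 2.84 TPM in B16 (log2 fold change 3.92 ± 0.32 SE, adjusted p = 1.1e-07). Ccl11, eotaxin, which fibroblasts make, had 59.9, 45.7 and 43.3 TPM in LL2, against 1.11, 1.48 and 0.967 TPM in B16F1 and 0.472, 0.0478 and 0.556 TPM in B16F10 (log2 fold change 4.88 ± 0.23 SE, adjusted p = 3e-10). Ccl5 and Cxcl9, which attract T cells, were not called (0.34 and 0.60). Ccl5 had 26.1, 34.8 and 27.98 TPM in LL2, against 40.7, 37.5 and 54.3 TPM in B16F1 and 7.23, 10.3 and 22.7 TPM in B16F10, so B16F1 was higher than LL2 and B16F10 lower.

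Enzymes and cytokines listed as suppressive mediators were higher in 14 of 17 tested and lower in 1 (median 2.60). Over all genes 22.8% were higher and 10.2% lower. Suppression itself was not measured. All 8 tested enzymes were higher. Arg1, arginase 1, which depletes arginine and marks suppressive macrophages (chr10:24915221-24927484), had 582, 212 and 399 TPM in LL2, against 5.84, 7.54 and 10.6 TPM in B16F1 and 18.1, 40.8 and 52.4 TPM in B16F10. LL2 replicate 1 was highest, no B16 library overlapped, and the difference was log2 fold change 4.39 ± 0.36 SE, adjusted p = 8.8e-08. Ptges, the microsomal prostaglandin E2 synthase (chr2:30889471-30929863), had 147, 75.6 and 91.7 TPM in LL2, against 0.794, 0.345 and 0.643 TPM in B16F1 and 0.0729, 0.711 and 0.385 TPM in B16F10, and no B16 library reached 1 TPM (log2 fold change 6.11 ± 0.26 SE, adjusted p = 1.2e-10). Ptgs2, the cyclooxygenase COX-2 that supplies it, had 51.8, 21.05 and 19.7 TPM in LL2, against 0.812, 0.138 and 0.303 TPM in B16F1 and 0.232, 1.92 and 1.43 TPM in B16F10 (log2 fold change 4.09 ± 0.34 SE, adjusted p = 9.7e-08). The last step of prostaglandin synthesis thus differed in opposite directions, Ptges being higher in LL2 and Ptgds (chr2:25466709-25470046) lower. Cybb, the oxidase subunit of phagocytes, and Entpd1 and Nt5e, which make adenosine from extracellular nucleotides, were among the other enzymes higher.

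Il33, an alarmin of stromal cells, had 86.9, 51.02 and 57.1 TPM in LL2, against 2.05, 1.98 and 0.711 TPM in B16F1 and 1.46, 0.767 and 1.92 TPM in B16F10 (log2 fold change 4.74 ± 0.28 SE, adjusted p = 2.8e-09). Il1b had 81.6, 96.6 and 37.6 TPM in LL2, against 2.80, 5.57 and 3.31 TPM in B16F1 and 1.21, 26.6 and 9.06 TPM in B16F10, with the highest B16 level in B16F10 replicate 2 (log2 fold change 3.41 ± 0.56 SE, adjusted p = 0.00012). The transforming growth factors split, with Tgfb1 and Tgfb3 higher and Tgfb2 lower. Tgfb2 had 0.553, 0.541 and 0.457 TPM in LL2, against 12.3, 15.3 and 13.8 TPM in B16F1 and 2.65, 1.72 and 2.397 TPM in B16F10, B16F1 being highest (log2 fold change -2.19 ± 0.20 SE, adjusted p = 3.4e-07). Il6 and Vegfa were not called (0.26 and -0.83), and Ido1, Il10, Csf2 and Csf3 were below the filter.

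**Figure D4:**
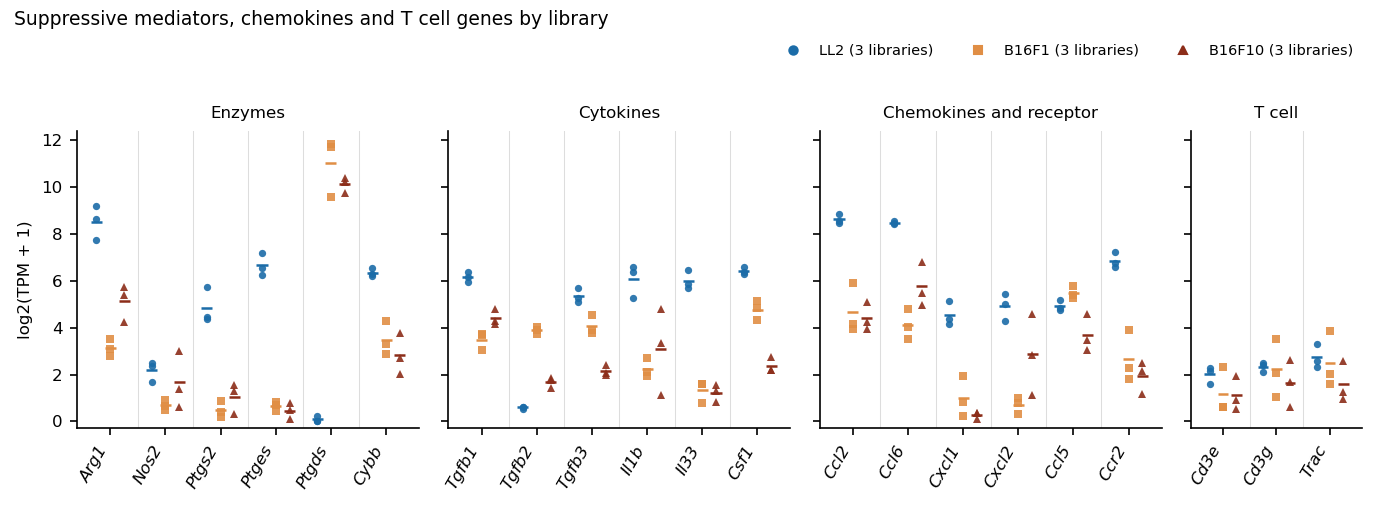
Levels of suppressive enzymes with Ptgds, cytokines, chemokines with Ccr2, and T cell genes as log2(TPM + 1), with a point for each library and a bar for the mean of a line (3 libraries each of LL2, B16F1 and B16F10). Arg1, Ptgs2, Ptges, Il33, Ccl2 and Ccr2 are higher in every LL2 library than in any B16 library, Ptgds and Tgfb2 are lower, and the T cell genes overlap.

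Receptors that sense microbial products and their partners were higher in 19 of 25 tested and lower in none (median 2.19). Over all genes 22.8% were higher and 10.2% lower. Of 10 Toll-like receptors 9 were higher. Tlr2, which senses lipoproteins of Gram-positive bacteria, had 41.8, 37.9 and 35.2 TPM in LL2, against 2.54, 7.76 and 6.36 TPM in B16F1 and 1.56, 3.44 and 5.39 TPM in B16F10 (log2 fold change 2.96 ± 0.33 SE, adjusted p = 2.3e-06). Tlr13, a sensor of bacterial ribosomal RNA in mice, rose by 3.10, and Cd14, the co-receptor for lipopolysaccharide, had 107, 84.6 and 79.5 TPM in LL2, against 2.94, 7.08 and 9.25 TPM in B16F1 and 2.07, 38.5 and 11.9 TPM in B16F10 (log2 fold change 3.34 ± 0.56 SE, adjusted p = 0.00013). Tlr3, the sensor of double-stranded RNA, was not called (-0.29), with 6.41 to 10.1 TPM in LL2, against 8.51 to 16.4 TPM in B16F10. The adaptors Ticam1 and Irak4 and the inflammasome adaptor Pycard were not called either (0.16, 0.57 and 0.28). Relative to the leukocyte score none of the 25 was higher and 8 were lower, beside 1.42% and 84.2% of all genes.

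Complement genes were higher in 10 of 12 tested and lower in 2, beside 22.8% and 10.2% of all genes. C5ar1 and C3ar1, the anaphylatoxin receptors of myeloid cells, rose by 3.47 and 3.26. The 2 falls came each from a single melanoma line. C4b had 15.5, 23.6 and 15.1 TPM in LL2, against 205, 124 and 144 TPM in B16F1 and 10.6, 8.24 and 27.1 TPM in B16F10, and C2 had 5.76, 7.39 and 4.44 TPM in LL2, against 1.597, 1.24 and 1.96 TPM in B16F1 and 93.1, 72.2 and 126 TPM in B16F10. Thus C4b was highest in B16F1 and C2 in B16F10, and neither was lower in LL2 against the other line alone. For C2 every LL2 library was above every B16F1 library.

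Genes of glycolysis and of the hypoxia response were lower in LL2, 12 of 21 with 2 higher (median -1.06). Over all genes 10.2% were lower and 22.8% higher. Car9, a carbonic anhydrase induced by hypoxia (chr4:43506966-43513729), had 3.68, 1.62 and 2.03 TPM in LL2, against 37.5, 8.94 and 57.97 TPM in B16F1 and 265, 219 and 242 TPM in B16F10, with B16F10 far above B16F1 and no overlap (log2 fold change -4.63 ± 0.42 SE, adjusted p = 2.8e-07). Pgk1, phosphoglycerate kinase, had 689, 344 and 369.5 TPM in LL2, against 2068, 783 and 1401 TPM in B16F1 and 3555, 2711 and 2976 TPM in B16F10 (log2 fold change -2.17 ± 0.37 SE, adjusted p = 0.00015). Bnip3 and Higd1a, mitochondrial proteins of the hypoxia response, fell by 1.92 and 2.13. Egln3, an oxygen-sensing hydroxylase that hypoxia induces, was higher instead, with 179, 70.1 and 80.9 TPM in LL2, against 54.8, 29.6 and 56.4 TPM in B16F1 and 4.59, 5.29 and 4.66 TPM in B16F10 (log2 fold change 2.63 ± 0.31 SE, adjusted p = 3.9e-06), and so was Adm (1.16), which was not called without LL2 replicate 1 (0.43) or B16F10 replicate 2 (1.09). Slc2a1, the glucose transporter GLUT1, was not called (0.58). LL2 replicate 1 was the highest LL2 library for Egln3, Pgk1 and Slc2a1. The count of falls was 7 against B16F1 alone, beside 13.1% of all genes. Without LL2 replicate 2 it was 7, beside 1424 of all 14966 genes tested.

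**Figure D5:**
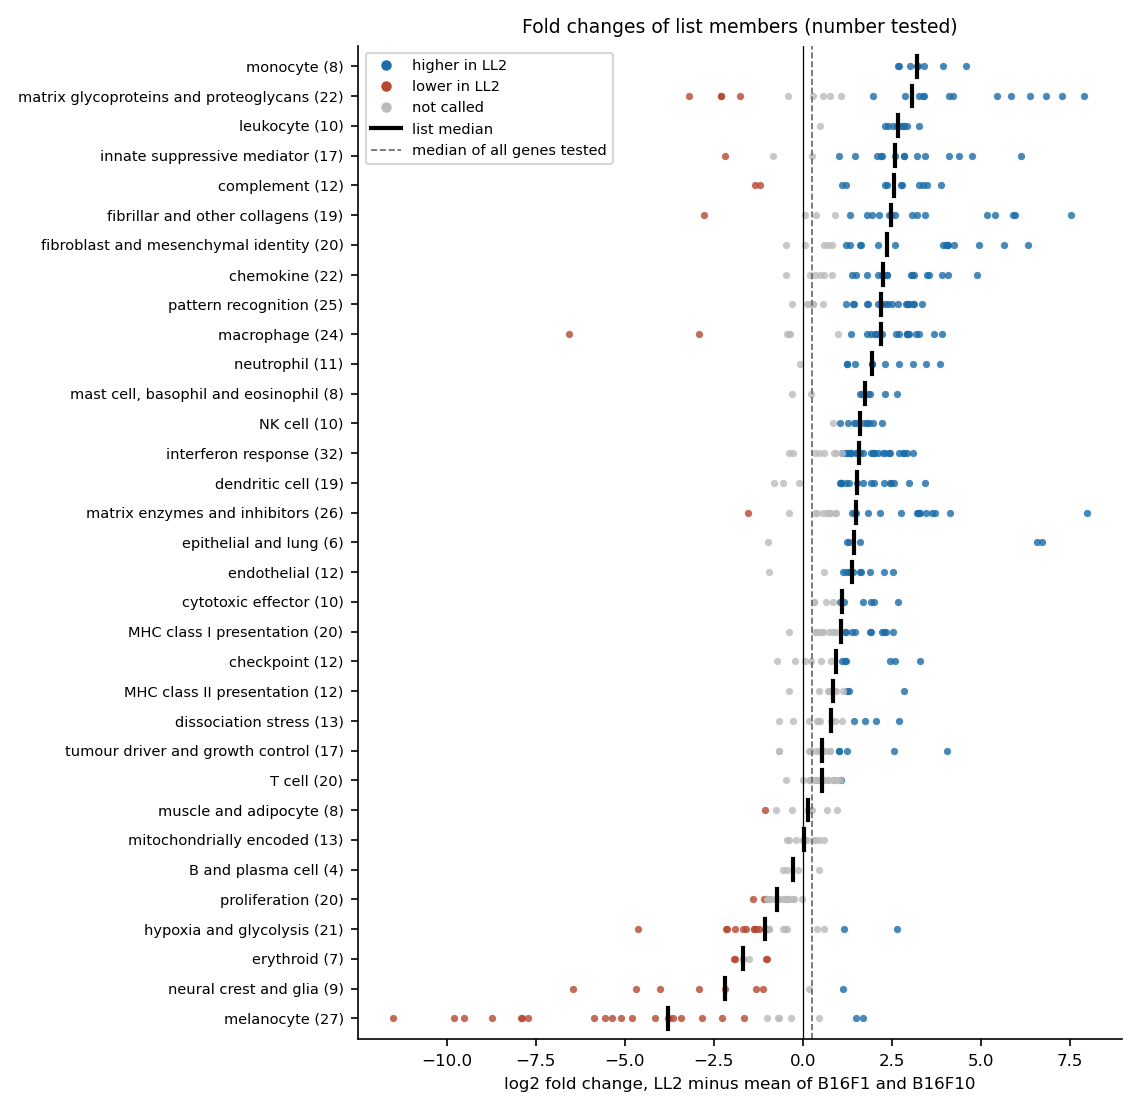
Log2 fold change of LL2 minus the mean of B16F1 and B16F10 for each tested member of the 33 gene lists, ordered by list median (black bar), with genes called higher, lower or not called in separate colours and the number tested in brackets. The dashed line marks the median of all 14966 genes, 0.27, and the lists run from monocyte genes at 3.21 to melanocyte genes at -3.78.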

How the data were processed

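RNA-seq of 9 of 30 libraries was analysed, 3 each of LL2, B16F1 and B16F10, grouped by line from the sample titles. The authors deposited TPM values, for which the submitters' processing notes name Trim Galore 0.6.5, STAR 2.7.3a, StringTie 2.1.2 and mm10. The annotation and the use of strand are not given in the sources used here, so antisense and overlapping genes cannot be told apart, and paralogs (Hba and Hbb, Gzm, Klra, H2) may share reads. No symbols were duplicated and no libraries were identical. Genes at 1 TPM or more in 3 libraries were fitted as log2(TPM + 1), whose pseudocount shrinks fold changes of low genes, with limma 3.58.1 (R 4.3.3, variance trend, 6 residual degrees of freedom). Calls needed a Benjamini-Hochberg adjusted p under 0.05 over all 14966 genes and a log2 fold change of 1. On simulated data for this comparison, with 200 of 14966 genes changed, calls recovered 69.5% of genes changed by 1.5 (log2) and 99.5% of those changed by 3, with 7 false calls each. The changed genes were drawn from the better expressed ones, with normal noise and no difference between the B16 lines. Recovery of genes near 1 TPM was therefore not measured. Values are given per library, and SE are those of the fit.

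The comparison, the 33 gene lists (619 entries, 516 tested) and the tests were chosen with earlier results of these data known, and the leukocyte score of 10 genes had been chosen on them. Lists are described by counts and medians, with no test of a list. Genes were named as the 10 largest rises and falls, leaving out predicted genes and receptor segments, and up to 5 called members per list by size. All members of the leukocyte, melanocyte, MHC class I and epithelial and lung lists could be named, and members of other lists that were not called. The called genes Adm, C2, C4b, Cd274, Col11a1, Col1a1, Col1a2, Cybb, Efemp1, Entpd1, Fabp5, Fmod, Nt5e, Prelp, Spp1, Tgfb1, Tgfb2 and Tgfb3, and Cxcl2, Nos2, Csf1 and Zeb1 in plots, fall outside that rule and were named after their values were seen. Gene coordinates are from GENCODE M21 on mm10, which holds 53292 of the 55291 symbols, and promoter windows from RefSeq (GRCm38.p6). Python 3.11.15, numpy 2.4.6, pandas 2.3.3, scipy 1.17.1 and matplotlib 3.10.9 were used. Alternatives were median-ratio scaling, removal of mitochondrial and haemoglobin genes, a pseudocount of 0.1, other filters and thresholds, all 30 libraries, each B16 line alone, a replicate block, subtraction of the leukocyte score and leaving out each library. Some genes that the naming rule covers are not reported here.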

Additional observations from a re-analysis of the deposited data

How the results depend on the processing

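Against 3408 genes higher and 1526 lower in LL2, median-ratio scaling gave 2490 higher and 2090 lower, and removing mitochondrial and haemoglobin genes 3525 and 1687. A pseudocount of 0.1 gave 4203 and 1880, no filter 3407 and 1432, a filter of 5 TPM 2642 and 1161, and all 30 libraries 3411 and 1530. With no fold threshold 5330 were higher and 2456 lower, and with a log2 threshold of 2, 1246 and 489. Leaving out each library gave 3185 to 3754 higher and 1373 to 1808 lower. The leukocyte score left 213 higher and 12604 lower, and a score of 9 genes without Arhgdib, added after seeing the data, 174 and 13038. Subtracting the score of 10 genes lowers every log2 difference by 2.49, so every smaller rise changes sign by arithmetic. With the score subtracted, the log2 differences of 32 of the genes called and named changed sign: Cd47 (-0.052), Was (-0.098), H2-T23 (-0.15), Cd52 (-0.17), H2-D1 (-0.20), Pecam1 (-0.21), Cd244a (-0.26), Tgfb3 (-0.27), Tapbp (-0.28), Tgfb1 (-0.29), Zfp36 (-0.42), Gzmb (-0.51), Col1a2 (-0.54), H2-Q7 (-0.58), H2-M3 (-0.62), Klrk1 (-0.70), Junb (-0.76), Ednrb (-0.82), Cpa3 (-0.84), Napsa (-0.89), Bcl2a1d (-1.01), H2-K1 (-1.02), Fosb (-1.06), Irf1 (-1.12), Ciita (-1.20), Foxa2 (-1.21), Cdh1 (-1.25), Erap1 (-1.27), H2-Q4 (-1.31), Adm (-1.33), Cd274 (-1.39) and Ikzf2 (-1.41). Against B16F1 alone (3001 higher, 1956 lower) of such genes those of C2 (1.39), Hbb-bt (1.08) and Hbb-bs (0.96) did, and against B16F10 alone (4438 and 1406) those of C4b (0.37), Fmod (0.051) and Adm (-0.52). The cause of the sign changes against a single B16 line was not tested. Median-ratio scaling ended the calls of Adm, Cd274, Ciita, Erap1, Gzmb, H2-K1, H2-Q4, Hbb-bs, Hbb-bt and Ikzf2, and leaving out 1 library could end those of Adm, Cd274, Fosb, H2-Q4, Hbb-bs, Hbb-bt and Ikzf2.

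A replicate block, pairing libraries by number, gave 3412 genes higher and 1528 lower. Same-numbered libraries deviated together weakly (r from -0.18 to 0.41, over 0.1 in 4 of 9 pairs), against -0.32 to 0.27 for libraries of different numbers. In 8 of 18 cases a library's closest match in another line had its own number. These values cannot show whether same-numbered libraries were handled together, which the labels do not say.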

Other observations

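Genes of growth control were higher in LL2 in 5 of 17 tested and lower in none, beside 22.8% of all genes higher. Under median-ratio scaling 2 were higher, beside 2490 of all 14966 genes tested. Myc, the growth-promoting transcription factor, had 241, 165 and 175 TPM in LL2, against 54.1, 13.8 and 37.2 TPM in B16F1 and 51.4, 26.5 and 27.5 TPM in B16F10 (log2 fold change 2.55 ± 0.36 SE, adjusted p = 2.8e-05). Egfr, the epidermal growth factor receptor, had 20.8, 17.5 and 15.96 TPM in LL2, against 0.357, 0.445 and 0.0719 TPM in B16F1 and 0.00762, 0.0331 and 0.0229 TPM in B16F10, so it was close to 0 in B16F10 (log2 fold change 4.05 ± 0.19 SE, adjusted p = 2.6e-10). Trp53 was not called (0.76, adjusted p = 0.019 in the limma fit), and Cdkn2a, Cdkn2b and Mycn were below the filter, with at most 0.182, 1.01 and 0.202 TPM in any of the 9 libraries. Proliferation genes were lower in 3 of 20, beside 10.2% of all genes. Under median-ratio scaling 11 were lower, beside 2090 of all 14966 genes tested. Against B16F10 alone 10 were lower, beside 9.39% of all genes. Ccne1, cyclin E1, had 9.26, 7.37 and 8.04 TPM in LL2, against 39.2, 10.8 and 25.96 TPM in B16F1 and 26.1, 20.6 and 25.2 TPM in B16F10 (log2 fold change -1.39 ± 0.32 SE, adjusted p = 0.0018), and Mki67, the Ki-67 antigen, was not called (-0.24).

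Of 13 genes that digestion of tissue can induce, 4 were higher in LL2, each an immediate early gene (Jun, Zfp36, Junb and Fosb, the last not called without LL2 replicate 2, at 1.17), and none of the 5 heat shock genes was called, beside 22.8% of all genes higher. Hspa1a was 41.0 TPM in LL2 replicate 1, against 8.09 and 6.85 TPM in the other LL2 libraries. None of the 13 mitochondrially encoded genes was called, their median log2 fold change being 0.04. Erythroid genes were lower in 4 of 7, beside 10.2% of all genes. Hbb-bs, an adult beta globin whose reads may be shared with Hbb-bt, had 636, 514 and 225 TPM in LL2, against 72.1, 1150.2 and 120.0 TPM in B16F1 and 4807, 28745 and 12570.0 TPM in B16F10 (log2 fold change -1.94 ± 0.73 SE, adjusted p = 0.037). B16F10 was the highest line, and B16F1 replicate 2 was also above every LL2 library. Hbb-bs was not called without LL2 replicate 1, 2 or 3 (-2.24, -2.09 and -1.49) or without B16F10 replicate 2 (-1.63), nor was Hbb-bt (-2.23, -2.05, -1.48 and -1.60). The count of erythroid genes lower was 0 without B16F10 replicate 2 and 7 without B16F10 replicate 1 or without B16F1 replicate 3.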
